A study of Mus musculus with 2 samples.

Results

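The mouse genes described are the 19 Wnt ligands, the 10 Frizzled (Fzd) receptors and 4 genes of secreted Frizzled-related proteins with Sfrp symbols (Sfrp1, Sfrp2, Sfrp4 and Sfrp5). They are 33 of 21851 protein-coding genes in the GENCODE M21 annotation. The rule that chose them used gene symbols and no measured value. Frzb, a relative of the Sfrp genes under another symbol, is therefore counted with the other secreted modulators. DNase-seq, which marks open chromatin by where the enzyme DNase I cuts, was done on gastrocnemius, a calf muscle, from 2 male mice aged 36 days. Both were B6CASTF1/J, hybrids of C57BL/6J and CAST/EiJ, and there was 1 library per animal and no other group, so no comparison between conditions was possible. The labels number the 2 libraries as separate biological replicates but give both the same donor entry.

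Wnt proteins are lipid-modified secreted ligands that bind Frizzled receptors at the cell surface, together with the co-receptors Lrp5 and Lrp6, and so stabilise beta-catenin in the cytoplasm. Some Wnt and Frizzled proteins act instead through planar polarity or calcium branches. Sfrp proteins carry a cysteine-rich domain like that of Frizzled, bind Wnt outside the cell and mostly limit signalling. In muscle the pathway is known for patterning the embryonic myotome and for satellite cells, where Wnt7a acts through Fzd7 in the mouse. The pathway is also known at the neuromuscular junction, where several Wnt ligands can act on acetylcholine receptor clustering.

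Nuclei came from whole tissue, so a low value at a gene cannot separate fewer nuclei with an open site from a less open site in each nucleus. Promoter peaks were found in both libraries at all 7 muscle fibre markers, 2 of 4 satellite cell markers, 3 of 4 fibroblast markers, 2 of 3 tenocyte markers, 2 of 4 endothelial markers, 2 of 3 smooth muscle and pericyte markers, 1 of 3 Schwann cell markers and 0 of 3 each for macrophages, erythroid cells and neurons. Among all protein-coding genes 54.2% had promoter peaks in both libraries, so marker counts near that share do not show that a cell type was present. The part of any of these cell types in the results was not tested. The shorter of the authors' peak lists held 50760 peaks in replicate 1 and 49230 in replicate 2, with a median peak signal of 1.76 in replicate 1 and 1.33 in replicate 2. Peak signal is the height of the cleavage density as the authors deposited it. Its scaling and the depth in reads are unknown, so signals were ranked only within a library.

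A promoter was called open when each library had a peak of its shorter list within 500 bp of a protein-coding start site. By that rule 3 of 19 ligand promoters were open (15.8%, 95% exact Clopper-Pearson interval 3.38 to 39.6%), as were 9 of 10 receptor promoters (90%, 55.5 to 99.7%) and 2 of 4 Sfrp promoters (50%, 6.76 to 93.2%). Among all protein-coding genes the share was 54.2%. Taken over all 33 members it was 42.4% (25.5 to 60.8%), and the classes lay on either side of the background. The intervals cover counting error only. Genes are not replicates, so the difference between classes was not tested. The ligand count rested partly on the requirement for both libraries: replicate 2 alone gave 6 open ligand promoters, against 57.1% of all genes, and replicate 1 alone gave 3, against 55.8%.

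**Figure D1:**
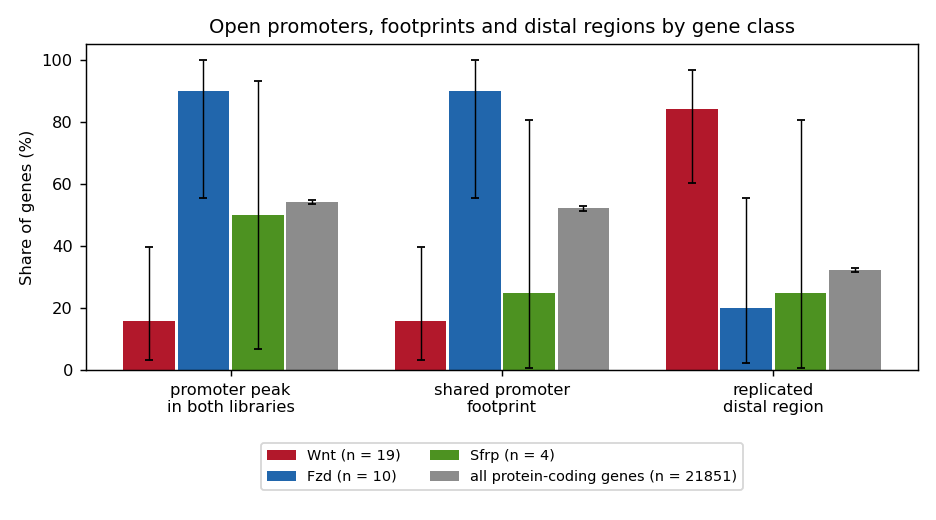
Share of Wnt, Fzd and Sfrp genes (percent, with 95% exact Clopper-Pearson intervals) that have a promoter peak, a replicated distal region or a shared promoter footprint, beside all protein-coding genes. Ligands are low for promoters (15.8%) and high for distal regions (84.2%), and receptors are at 90% for promoters and 20% for distal regions. The shares are not matched for gene length. Under 10 kb, 2 of 8 receptors had a distal region, against 18.2% of all genes of that length.

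The sequences of 4 promoter peaks are shown from the upper part of the members' range: the receptors Fzd4 and Fzd7 had the strongest promoters of the members, Fzd9 an intermediate one, and Wnt11 the strongest ligand promoter. Each is the stretch of the replicate 1 peak that lies outside annotated exons, read 5′ to 3′ on the strand of the gene from the mm10 (GRCm38) reference, the C57BL/6J sequence and not that of the hybrids. Capitals mark bases that lie in footprints of both libraries, that is, short stretches protected from cutting within open chromatin.
Fzd4 (chr7:89404223-89404340, plus strand): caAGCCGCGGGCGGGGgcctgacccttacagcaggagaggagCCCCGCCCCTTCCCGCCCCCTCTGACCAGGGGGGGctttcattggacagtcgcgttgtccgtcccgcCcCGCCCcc
Fzd7 (chr1:59481901-59482140, plus strand): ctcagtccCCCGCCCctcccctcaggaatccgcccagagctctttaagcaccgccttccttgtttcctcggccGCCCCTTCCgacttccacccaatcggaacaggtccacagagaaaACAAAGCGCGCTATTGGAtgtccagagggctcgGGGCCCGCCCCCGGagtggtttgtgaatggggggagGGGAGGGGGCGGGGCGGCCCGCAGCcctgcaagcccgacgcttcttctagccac
Fzd9 (chr5:135251231-135251380, minus strand): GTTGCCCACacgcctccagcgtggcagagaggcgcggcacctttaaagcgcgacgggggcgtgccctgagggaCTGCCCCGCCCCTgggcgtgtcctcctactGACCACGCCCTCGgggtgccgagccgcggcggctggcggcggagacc
Wnt11 (chr7:98834961-98835111, plus strand): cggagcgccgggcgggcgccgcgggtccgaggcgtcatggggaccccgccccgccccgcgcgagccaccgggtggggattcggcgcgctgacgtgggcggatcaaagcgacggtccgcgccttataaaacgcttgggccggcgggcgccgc

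Fzd4, Fzd7 and Fzd9 each held capitals, at 55, 73 and 35 bases of the printed stretches, and Wnt11 held none, since no footprint there was shared. The printed set does not stand for its classes. Like stretches that are not printed held 10 such bases each at Fzd1 and Fzd2, 27 at Wnt4 and 6 at Wnt9a. The next sequences are distal regions, given for the same reason: those near Wnt2b and Wnt11 had the highest ranks among the distal regions of these genes, the one past Wnt1 and the ones near Wnt9b and Wnt5b carry letters described further on, and the one upstream of Sfrp2 was the only one at an Sfrp gene.
Wnt2b upstream (chr3:104968061-104968280, minus strand): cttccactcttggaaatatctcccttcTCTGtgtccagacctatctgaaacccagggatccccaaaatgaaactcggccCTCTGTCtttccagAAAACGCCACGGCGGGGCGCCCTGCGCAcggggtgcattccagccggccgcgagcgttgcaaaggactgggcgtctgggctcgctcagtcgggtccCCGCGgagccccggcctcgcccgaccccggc
Wnt11 intron (chr7:98836761-98836980, plus strand): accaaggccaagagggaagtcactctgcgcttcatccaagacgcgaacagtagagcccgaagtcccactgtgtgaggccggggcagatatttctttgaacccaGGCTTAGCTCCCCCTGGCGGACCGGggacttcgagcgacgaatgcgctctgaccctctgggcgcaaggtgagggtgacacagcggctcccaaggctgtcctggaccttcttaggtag
Wnt1 downstream (chr15:98799509-98799661, plus strand): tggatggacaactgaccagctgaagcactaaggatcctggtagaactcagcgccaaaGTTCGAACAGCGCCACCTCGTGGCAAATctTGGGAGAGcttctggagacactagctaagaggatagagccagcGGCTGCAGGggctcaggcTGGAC
Wnt9b upstream (chr11:103758874-103759020, minus strand): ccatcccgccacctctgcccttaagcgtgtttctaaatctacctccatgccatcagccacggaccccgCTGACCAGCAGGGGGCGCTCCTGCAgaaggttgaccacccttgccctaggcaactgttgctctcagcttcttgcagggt
Wnt5b body (chr6:119444221-119444400, minus strand): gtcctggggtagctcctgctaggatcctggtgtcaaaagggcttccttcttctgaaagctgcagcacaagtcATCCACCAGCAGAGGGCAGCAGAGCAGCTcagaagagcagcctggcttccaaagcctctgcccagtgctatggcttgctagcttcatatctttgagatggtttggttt
Sfrp2 upstream (chr3:83764321-83764540, plus strand): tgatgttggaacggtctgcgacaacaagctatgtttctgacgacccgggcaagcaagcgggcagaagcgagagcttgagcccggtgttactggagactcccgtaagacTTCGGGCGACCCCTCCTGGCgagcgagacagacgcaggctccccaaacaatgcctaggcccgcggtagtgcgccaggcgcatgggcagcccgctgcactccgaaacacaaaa

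The 3 open ligand promoters were those of Wnt11, Wnt4 and Wnt9a. Wnt11 (ENSMUSG00000015957.12, chromosome 7, 98835112 to 98855195, plus strand), which acts in convergent extension and kidney branching, had a peak signal of 2.45 in replicate 1 and 1.94 in replicate 2. Wnt4 (ENSMUSG00000036856.4, chromosome 4, 137277489 to 137299726, plus strand), needed for kidney and female gonad development, had 1.94 and 1.66. The Wnt9a promoter (ENSMUSG00000000126.11, chromosome 11, 59306928 to 59333552, plus strand), a gene of joint formation, had 1.66 and 1.86. All 3 ranked low in both libraries. The lower of the within-library percentiles among the promoter signals of all protein-coding genes with a promoter peak in that library was 20.8 for Wnt11, 14.8 for Wnt4 and 11.8 for Wnt9a, against a median of 46.2 over all open protein-coding genes. The Wnt9a peaks of the libraries did not overlap: replicate 1 had chromosome 11, 59306801 to 59307002, and replicate 2 had 59306601 to 59306680.

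Another 3 ligands were called in replicate 2 alone, against 2.88% of all protein-coding genes. Wnt1, a ligand of the beta-catenin branch that patterns the midbrain, had 1.16 there, Wnt5a, the best known ligand of the planar polarity branch, had 1.14, and its relative Wnt5b had 1.07. In the longer peak lists Wnt5b was listed in both libraries, at 0.999 in replicate 1 and 1.07 in replicate 2, which brought the ligand count to 4, against 59% of all protein-coding genes. All these signals lay below the median peak of their own shorter list. In the longer lists a further 5 ligands were listed in 1 library: Wnt2b in replicate 1 at 0.715, and Wnt6, Wnt2, Wnt7a and Wnt10b in replicate 2 at 0.749, 0.453, 0.920 and 0.651. The remaining 8 had no promoter peak in any list: Wnt3 and Wnt3a of gastrulation, Wnt7b, Wnt8a and Wnt8b of the embryo, Wnt9b of the kidney, Wnt10a of skin and teeth, and Wnt16 of bone.

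Among the receptors, Fzd4, Fzd7, Fzd5 and Fzd1 ranked above the 50th percentile in both libraries. Fzd4 (ENSMUSG00000049791.4, chromosome 7, 89404355 to 89413134, plus strand), the receptor for Norrin in retinal vessels, had a promoter signal of 11.1 in replicate 1 and 4.93 in replicate 2 (lower percentile 65.4). Its peak also lies within 500 bp of a start site of Tmem135, so the signal cannot be assigned to 1 of them, and the same holds for Gm26704 at the Fzd6 peak and 5930412G12Rik at the Fzd10 peak. Fzd7 (ENSMUSG00000041075.8, chromosome 1, 59482424 to 59486955, plus strand), the satellite cell receptor, had 9.71 and 4.54 (60.6). Fzd5 (ENSMUSG00000045005.9, chromosome 1, 64730558 to 64737751, minus strand), which acts in eye development, had 8.69 and 4.28 (57.2), and Fzd1 (ENSMUSG00000044674.6, chromosome 5, 4753839 to 4758035, minus strand) had 6.13 and 4.002 (53.3). These 4 receptor promoters were each higher than every open ligand promoter in both libraries.

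The other receptors ranked lower. Fzd8 had a promoter signal of 4.81 in replicate 1 and 3.13 in replicate 2, Fzd9, known in bone formation, had 3.12 and 3.32, and Fzd2 had 4.36 and 1.89. Fzd3 and Fzd6, which act in planar polarity, in axon guidance and hair orientation, had 1.70 and 1.38, and 0.900 and 0.789. Their lower percentiles were 40.5 for Fzd8, 27.6 for Fzd9, 21.7 for Fzd2, 12.3 for Fzd3 and 2.70 for Fzd6. Fzd3 and Fzd6 therefore sat within or below the range of the open ligands. Fzd10 was the only receptor not open by the rule, with a peak of 1.04 in replicate 1, where 1.59% of all genes were called in that library alone, and 0.664 in replicate 2 in the longer list alone. With the longer lists all 10 receptors were open.

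Of the Sfrp genes, Sfrp1 (ENSMUSG00000031548.7, chromosome 8, 23411502 to 23449632, plus strand) had a promoter signal of 2.08 in replicate 1 and 1.27 in replicate 2, and Sfrp4 (ENSMUSG00000021319.7, chromosome 13, 19623104 to 19632994, plus strand), active in bone, had 1.22 and 0.907. Both were among the lower ranks, at percentiles 11.7 and 6.18. Sfrp2 was called in replicate 2 alone at 0.854, with 0.505 in replicate 1 in the longer list, and Sfrp5, a fat tissue protein that binds Wnt5a, had no peak in any list. The median signal of open promoters was 1.94 in replicate 1 and 1.86 in replicate 2 for ligands, 4.81 and 3.32 for receptors, 1.65 and 1.09 for Sfrp genes, and 5.73 and 3.95 for all open protein-coding genes.

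**Figure D2:**
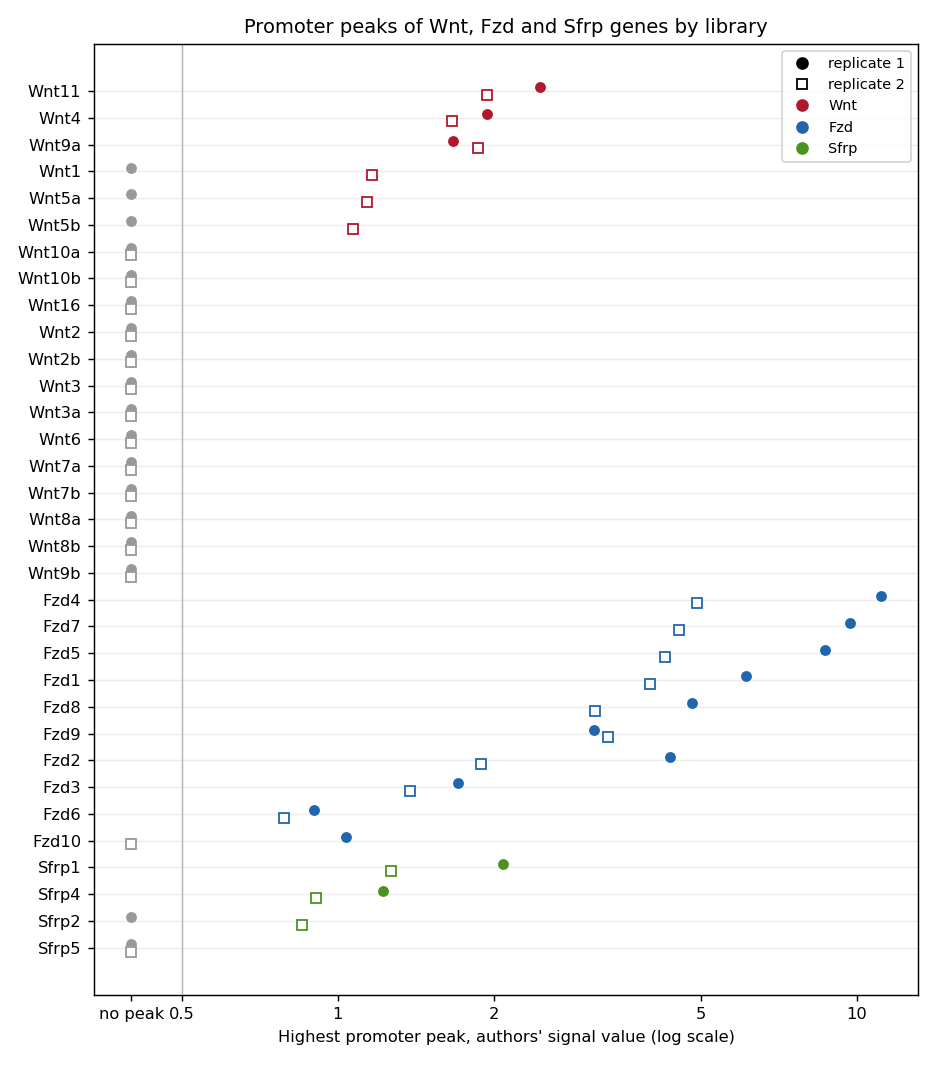
Promoter peak signal (authors' scale, log axis) of each of the 33 genes in replicate 1 and replicate 2, by class. The 4 strongest are the receptors Fzd4, Fzd7, Fzd5 and Fzd1, and the open ligands Wnt11, Wnt4 and Wnt9a lie between 1.66 and 2.45.

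The authors' false discovery rates (q-values) describe the same promoters but are not independent of the peak calls. Among the members, a library had q-values at or below 0.001 near a start site only where its shorter list held a promoter peak. The ligand medians of 0% below therefore restate that most ligands had no such peak. In the deposited tables, which list runs of bases with q-values up to 0.05, 7 of 19 ligands had no listed run within 500 bp of a start site in either library (Wnt3, Wnt3a, Wnt7b, Wnt8a, Wnt8b, Wnt9b and Wnt10a), as did 0 of 10 receptors and 1 of 4 Sfrp genes (Sfrp5), against 34.7% of all protein-coding genes. All 10 receptors, 5 ligands and 3 Sfrp genes had a run in both libraries, against 59.9% of all genes. Over all genes of a class the median share of the window at or below 0.001 was 0% in each library for ligands, 56.7% in replicate 1 and 81.5% in replicate 2 for receptors, 4.94% and 8.54% for Sfrp genes, and 16.2% and 25.6% for all protein-coding genes. Among open promoters the median share of the window at or below 0.001 was 25.2% in replicate 1 and 51.8% in replicate 2 for ligands, 60.1% and 89.9% for receptors, 20.2% and 19.7% for Sfrp genes, and 41.6% and 62.5% for all genes. At Fzd7 the whole window was at or below 0.001, 100% in each library.

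Promoters rich in CpG dinucleotides are open in most tissues, and the classes were set against genes of like CpG content. All genes were divided into 3 equal classes by the observed over expected CpG ratio around their start sites, whose median was 0.738 for ligands, 0.826 for receptors, 0.727 for Sfrp genes and 0.606 for all genes. In the upper CpG class 3 of 9 ligands were open (Wnt4, Wnt9a and Wnt11, but not Wnt2b, Wnt3a, Wnt5b, Wnt7a, Wnt7b or Wnt9b), 7 of 8 receptors, and 1 of 2 Sfrp genes, against 90.5% of all genes. In the middle class 0 of 7 ligands, 2 of 2 receptors and 1 of 2 Sfrp genes were open, against 65.8% of all genes. In the lower class 0 of 3 ligands (Wnt8a, Wnt8b and Wnt16) were open, against 6.36% of all genes. The ligand counts thus lay below the background in the upper and middle classes, and the receptor counts were near it in the upper class.

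Footprints were counted by position. A footprint shared by both libraries within 500 bp of a start site was found at 3 of 19 ligands (Wnt4, Wnt5b and Wnt9a), 9 of 10 receptors (all but Fzd6, whose promoter was open, and with Fzd10, whose promoter was not) and 1 of 4 Sfrp genes (Sfrp1), against 52.1% of all protein-coding genes. Fzd4 had 6 footprints in replicate 1 and 13 in replicate 2, of which 6 were shared. Fzd5 had 6 and 11 with 6 shared, Fzd1 had 5 and 11 with 5 shared, and Fzd8 had 8 and 13 with 5 shared. The other receptors shared fewer, with 4 at Fzd7, 3 at Fzd9, 2 each at Fzd3 and Fzd10, 1 at Fzd2 and 0 at Fzd6. Of the ligands, Wnt11 had 6 and 7 with 0 shared, Wnt4 had 5 and 7 with 4 shared, and Wnt9a and Wnt5b each had 4 and 13 with 1 shared, so that Wnt4 lay within the range of the receptors. The count of ligands with a footprint was 9 in replicate 2 alone and 5 in replicate 1 alone, and that of Sfrp genes was 3 and 2, against 61.1% of all genes in replicate 2 alone and 57.4% in replicate 1 alone. The deposited footprint lists held 234134 footprints in replicate 2 and 155037 in replicate 1.

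Away from promoters the ligands stood highest. A replicated distal region is a stretch with a peak of each library, over 1 kb from every annotated start site, in the gene body or within 10 kb of it. At least 1 such region was found at 16 of 19 ligands (84.2%, 60.4 to 96.6%), 2 of 10 receptors (20%, 2.52 to 55.6%) and 1 of 4 Sfrp genes (25%, 0.631 to 80.6%), against 32.2% of all protein-coding genes. There were 24 distinct regions at ligands, 3 at receptors and 1 at Sfrp genes. The ligands without one were Wnt3, Wnt3a and Wnt8b. With replicate 1 alone the counts of regions were 33, 8 and 2, and with replicate 2 alone 32, 9 and 2.

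Gene length sets how much sequence is searched, and ligand genes were longer, with a median of 22.2 kb against 5.25 kb for receptors, 8.94 kb for Sfrp genes and 17.4 kb for all genes. Within genes of 10 to 50 kb, 12 of 15 ligands had a region, against 32.4% of all genes of that length. Under 10 kb the counts were 3 of 3 ligands, 2 of 8 receptors and 1 of 3 Sfrp genes, against 18.2% of all genes. Over 50 kb they were 1 of 1 ligand, Wnt5b, and 0 of 1 receptor, Fzd3, against 53.6% of all genes. Per 100 kb searched there were 2.94 regions at ligands, 0.877 at receptors, 0.713 at Sfrp genes and 0.854 at all genes. Here regions and sequence shared by neighbouring genes were counted for each gene, unlike in the count of distinct regions. The receptors were thus near all genes per 100 kb searched, and their 2 of 8 under 10 kb was not below the 18.2% of all genes of that length. Another ligand family, the Fgf genes, had open promoters at 8 of 22 and a distal region at 7 of 22, against 54.2% and 32.2% of all genes. Their receptors, the Fgfr genes, had open promoters at 3 of 4 and a distal region also at 3 of 4. The Fgfr genes were long, with a median of 39.1 kb and up to 37 regions at 1 gene, so they are not matched to the Frizzled receptors in length.

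The highest ranking region at any member lay 6250 bp upstream of Wnt2b, a ligand without an open promoter, at chromosome 3, 104968061 to 104968280. Its signal was 4.51 in replicate 1 and 6.65 in replicate 2, and the lower of its within-library percentiles among the 15864 replicated distal regions of the genome was 92.4. In an intron of Wnt11, 1740 bp into the gene, a region had 3.33 and 2.86 (percentile 84.0). Wnt10a, with no promoter peak in any list, had a region downstream, 16795 bp from its start site, at 3.06 and 4.48 (80.5). Wnt1 likewise had one 9728 bp from its start site, past the end of the gene, at 2.64 and 3.46 (72.8).

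Wnt9a had 3 regions. The one 4017 bp upstream had a signal of 2.71 in replicate 1 and 3.15 in replicate 2, the one 2302 bp into the gene had 3.55 and 1.93, and the one 23821 bp into the gene had 2.22 and 2.50. Each had a higher signal than the Wnt9a promoter peak in the same library, which had 1.66 and 1.86. The ligands' other regions, at Wnt2, Wnt4, Wnt5a, Wnt6, Wnt7a, Wnt7b, Wnt8a, Wnt9b, Wnt10a, Wnt10b and Wnt16, had percentiles of 2.997 to 67.6. The region within Wnt5b, 5075 bp from a start site, had 2.19 and 2.09. At the receptors, regions were found only at Fzd7, with 2.48 and 2.23 over an exon and 2.26 and 1.59 downstream, and at Fzd8, with 0.764 and 1.20. The Sfrp2 region, 1890 bp upstream of a gene whose promoter was called in 1 library, had 2.15 and 1.95.

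**Figure D3:**
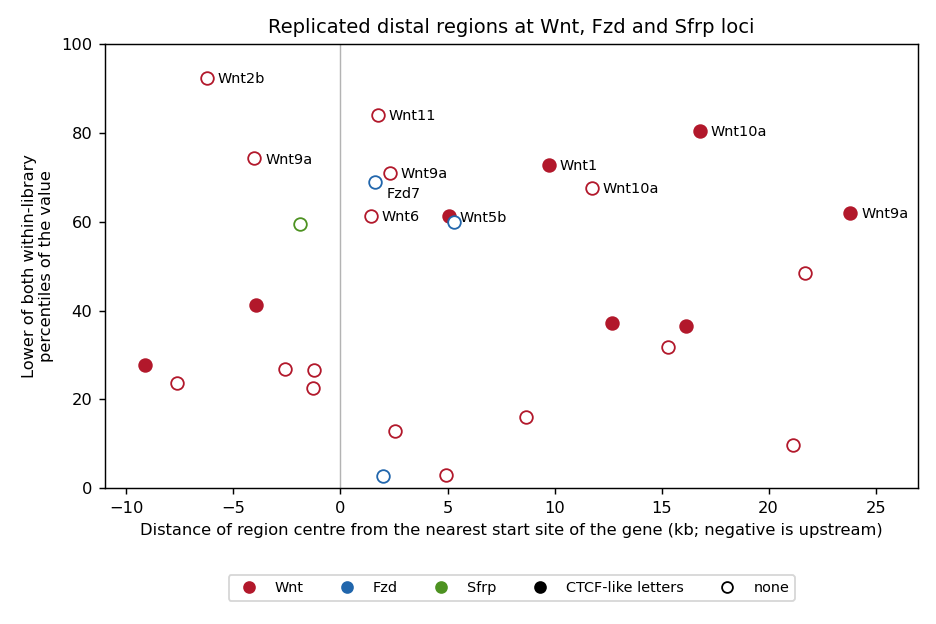
Each replicated distal region at a Wnt, Fzd or Sfrp gene by its distance from the nearest start site of that gene (kb) and the lower of its within-library percentiles among all replicated distal regions. Filled points hold the CTCF-like letters. Wnt2b has the highest percentile (92.4), and 4 of the 28 regions belong to receptors or Sfrp genes.

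Several Wnt genes lie side by side in gene pairs, and each pair below had 1 replicated distal region between its members and no other coding gene. Wnt6 and Wnt10a on chromosome 1 are 6.19 kb apart in the same direction. Wnt3a and Wnt9a on chromosome 11 are 16.2 kb apart, Wnt9b and Wnt3 on the same chromosome 24.3 kb, and Wnt10b and Wnt1 on chromosome 15 11.7 kb, all head to head. The regions between them had a signal of 1.57 in replicate 1 and 1.43 in replicate 2 for Wnt6 and Wnt10a, 2.71 and 3.15 for Wnt3a and Wnt9a, 1.38 and 1.03 for Wnt9b and Wnt3, and 1.73 and 1.01 for Wnt10b and Wnt1. A region between 2 genes counts for each gene whose 10 kb flank holds it. By that rule the Wnt6 and Wnt10a region and the Wnt10b and Wnt1 region counted for both genes. The other regions counted for Wnt9a alone and Wnt9b alone, since they lay beyond the 10 kb flanks of Wnt3a and Wnt3.

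Short letter strings were counted in the 200 bases around the centre of each region, on both strands. A match is a description and not a binding site. A string from the core of the sequence bound by the insulator protein CTCF, with fixed and free positions, was chosen after the region sequences were read. It was found in 8 of 24 ligand regions (33.3%, 15.6 to 55.3%), against 19.6% of all 15864 replicated distal regions, and in 0 of 3 receptor and 0 of 1 Sfrp regions. The ligand share was 25% with replicate 2 alone, 24.2% with replicate 1 alone and 21.4% (9 of 42 regions) with the longer lists, nearer to that background. All 8 ligand regions had a match at a footprint shared by both libraries, against 2724 of the 3107 matching regions in all. The sequences read before the choice had shared footprints in capitals. The choice thus favoured matches at footprints in the ligand regions, and no conclusion is drawn from this count. With 1 mismatch allowed the shares were 50% of ligand regions and 52.2% of all regions, and all 3 receptor regions matched. The 8 regions include the printed ones near Wnt1, Wnt9b and Wnt5b, the one downstream of Wnt10a and the one between Wnt6 and Wnt10a. The matched letters in these 3 printed regions are given as the minus strand reads, so for Wnt1, printed on the plus strand, they appear there as the reverse complement.
Wnt1 (chr15:98799577-98799588, minus strand): CCACGAGGTGGC
Wnt9b (chr11:103758937-103758948, minus strand): CCAGCAGGGGGC
Wnt5b (chr6:119444312-119444323, minus strand): CCAGCAGAGGGC

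Other strings rested on 5 or fewer matches each in ligand regions. CAGCTG, an E-box of the MyoD type, was found in 5 of 24 ligand regions (20.8%), against 26.2% of all regions. TGACTCA, bound by AP-1, was found in 2 (8.33%), against 7.99%, and GGAATG, bound by TEAD factors, in 3 (12.5%), against 12.2%. A string of the MEF2 type, with any base allowed at its middle positions, was found in 2 (8.33%), against 2.65% of all regions. Its free middle makes it looser than a MEF2 site, so these are not counts of such sites. The GC box GGGCGG was found in 4 (16.7%), against 13.1%. CTTTGAT, bound by the Tcf and Lef factors at the end of the pathway, was found in 0 of 24 ligand regions, against 1.95%. In RefSeq promoters, 250 bases before to 50 after the start in GRCm38.p6, CTTTGAT was found in 2 of 15 ligands with a RefSeq entry (Wnt5b and Wnt11) and 0 of 6 receptors, against 3.68% of all, and GGGCGG in 12 of 15 ligands, 5 of 6 receptors and 1 of 2 Sfrp genes, against 51.0% of all.

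Further along the pathway, 49 of 73 listed genes had an open promoter (67.1%, 55.1 to 77.7%), against 54.2% of all protein-coding genes. All 11 of the cytoplasmic core were open, with a median lower percentile of 77.3. All of them but Btrc lay in the upper CpG class, where 90.5% of all genes were open, so this count was near that share. The beta-catenin ligase subunit Btrc had a promoter signal of 20.3 in replicate 1 and 15.9 in replicate 2, the kinase Gsk3b had 14.5 and 7.46, and the scaffold Apc had 11.5 and 7.41. Of the nuclear factors 8 of 12 were open (median 60.5), led by the co-repressors Tle4 at 20.8 and 14.6, Tle1 at 16.9 and 8.14 and Tle3 at 11.6 and 5.91. Lef1 and Tle2 lacked a promoter peak in both shorter lists, and Lef1 had one in both longer lists. The cytoplasmic core thus had a higher median than the receptors, whose median was 40.5, but the ranges overlapped. Csnk1e and Dvl2 of the core had lower percentiles of 36.2 and 38.7, against 65.4 for the receptor Fzd4.

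Of the other secreted modulators 3 of 13 were open, against 54.2% of all protein-coding genes, with a median lower percentile of 4.19. Dkk4, Sost, Sostdc1 and Cer1 lay in the lower CpG class, where 6.36% of all genes were open. Only Rspo1 and Rspo2 lay in the upper class, so this list is not matched to the cytoplasmic core in CpG content. The Wnt inhibitor Wif1 had a promoter signal of 1.57 in replicate 1 and 1.505 in replicate 2, the antagonist Cer1 had 1.02 and 0.907, and Frzb, a relative of the Sfrp genes, had 0.875 and 0.927. The antagonist Dkk1 and its relative Dkk3 lacked one in both shorter lists. Of the Wnt secretion genes 3 of 5 were open, near the 54.2% of all genes. They were Vps35 of the retromer at 8.42 and 6.16, the acyltransferase Porcn at 3.99 and 1.72, and the carrier Wls at 2.12 and 1.06. The Wnt-inactivating enzymes Notum and Trabd2b had no promoter peak in the shorter lists.

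Co-receptors were open at 4 of 6, with Ror1 at a promoter signal of 4.67 in replicate 1 and 4.35 in replicate 2, Lrp6 at 3.95 and 3.60, and Ryk at 2.18 and 2.10. Lrp5 was called in replicate 2 alone, and Ptk7 in neither. With the longer lists all 6 were open, against 59% of all protein-coding genes. Receptor turnover genes were open at 4 of 7, including the R-spondin receptor Lgr4 at 9.70 and 5.24, the ubiquitin ligase Znrf3 at 7.52 and 5.99, and the Dkk receptor Kremen1 at 7.52 and 4.60. Kremen2 had no promoter peak in those lists. Planar polarity genes were open at 8 of 10 (median 25.4), with Prickle1 at 5.28 and 3.52, Daam1 at 7.55 and 3.36, and Daam2 at 4.34 and 2.60, and Celsr1 and Celsr3 had no promoter peak in the shorter lists. Of the target genes 8 of 9 were open (median 21.7): the feedback inhibitor Axin2 had 5.75 and 3.82, Apcdd1 had 4.25 and 3.22, and Myc had 3.37 and 2.46. Among all protein-coding genes 54.2% were open. Every gene of the lists in this paragraph lay in the middle or upper CpG class, where 65.8% and 90.5% of all genes were open. These counts alone therefore do not set the lists apart from the background.

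**Figure D4:**
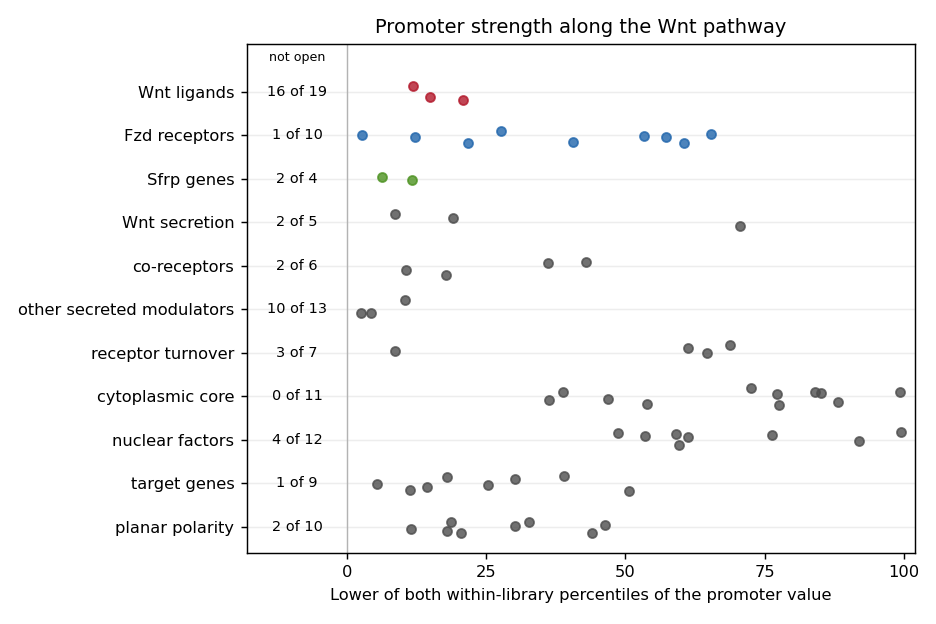
Lower of the within-library percentiles of the promoter signal for each open gene of the Wnt, Fzd and Sfrp classes and of the other pathway lists, with the number not open by the rule for both libraries at the left. All 11 genes of the cytoplasmic core are open (median 77.3), and 16 of 19 ligands and 10 of 13 other secreted modulators are not. Of all protein-coding genes 54.2% are open, and the lists are not matched in CpG content.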

How the data were processed

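The DNase-seq files of 2 libraries (replicates 1 and 2 of 1 group) were used as deposited. Per the labels, they use the mm10 assembly. The sources used here do not name the aligner, peak caller or footprint caller, nor how CAST/EiJ reads were aligned. The peak signal in the deposited lists is the height of the cleavage density, on the authors' scale. The authors also deposited q-values per run of bases, and a footprint score that is the same on every line, so footprints were used by position.

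Peaks were assigned to GENCODE M21 genes from 41408 start sites of protein-coding transcripts. Distal regions avoided all 132629 annotated start sites. Shared features overlapped by at least 1 bp. Promoter percentiles were taken among coding genes with a promoter peak in that library, and region percentiles among all replicated distal regions. Sequences came from the GRCm38.p6 RefSeq genome. Python 3.11.15, pandas 2.3.3, scipy 1.17.1 and pysam 0.24.0 were used, and the overlap and merging of intervals were tested on simulated data. Members, gene lists and strings were chosen with earlier results of these data known. All members are named. For each pathway list, up to 3 of the highest ranking open genes and up to 2 without a peak are named. No p-value is given, since genes are not replicates. Alternatives were the longer lists, other windows, stricter peaks and each library left out.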

Additional observations from a re-analysis of the deposited data

How the results depend on the processing

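Of 70 alternatives, 50 left the value within 1.5 times, or for the CTCF-like share within its interval, and 20 moved it. Receptor promoters and the pathway count of 49 stayed within 1.5 times under every alternative run. The CTCF-like share, 33.3% as reported, was 24.2 to 25% with 1 library left out and 21.4% with the longer lists, alternatives chosen after seeing the data. With 1 library left out, open promoters numbered 3 to 6 for ligands, 9 to 10 for receptors and 2 to 3 for Sfrp genes. Genes with a footprint numbered 5 to 9, 10 and 2 to 3, and distal regions 32 to 33, 8 to 9 and 2. With peaks at or above the median signal, 0 Sfrp promoters and 11 ligand regions were left. With 1000 bp around start sites 5 ligands had a shared footprint. Distal regions with 50 kb flanks numbered 45 at ligands, 12 at receptors and 5 at Sfrp genes, with the longer lists 42, 7 and 3, and in the gene body alone 12 at ligands and 0 at Sfrp genes. The cause was not tested. No paired analysis was possible because there is 1 group. The depth is unknown, so a promoter without a peak was not detected at this depth rather than shown to be closed.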
